A study of Mus musculus with 6 samples.

Results

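The cortical neuropeptide genes are 10 genes chosen by name, Vip, Sst, Npy, Cck, Tac1, Cort, Crh, Penk, Pdyn and Adcyap1, out of 52636 genes in the count table. They and the other gene lists were chosen with earlier results of these data known. Shares over all genes set beside them below are therefore description, not tests. All 10 were matched by symbol, and all 10 passed the filter on low counts that left 20473 genes for testing. The tissue was micro-dissected V1, the primary visual cortex, from 3 C57BL/6J wild-type mice aged 28 days whose right eye had been closed by suture for 3 days. Each mouse gave a library of total RNA from its contralateral (left) V1, opposite the closed eye, and a second from its ipsilateral (right) V1, on the same side, so there were 3 libraries per hemisphere. Both hemispheres of every mouse had therefore been exposed to monocular deprivation, and mice with both eyes open were not analysed here. Closing an eye at this age alters cortical responses to both eyes, and in the mouse the contralateral eye supplies most of the drive to V1. The comparison asks which of these genes differed between the hemisphere opposite the closed eye and the one on the same side. Since the right eye was closed in all 3 mice, the side of deprivation and the side of the brain cannot be told apart.

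Neuropeptides are cut from larger precursor proteins, packed into dense-core vesicles and released mostly during strong or repeated firing. They act on G protein-coupled receptors, more slowly and over longer distances than the glutamate or GABA released by the same neurons. In the cortex most of them mark classes of GABAergic interneurons: Sst labels cells that target dendrites, Vip labels cells that inhibit other interneurons, and Npy, Tac1, Cort, Crh, Penk and Pdyn label subsets of interneurons in various combinations. Cck is found in both interneurons and excitatory neurons. No cell class is assigned here to Adcyap1. Transcription of several of these precursors rises with cyclic AMP and calcium signalling. V1 was sampled here as bulk tissue, so fewer cells of a type and less RNA per cell cannot be told apart.

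In edgeR over all libraries all 10 genes had a lower fitted level in contralateral than in ipsilateral V1, Npy by only -0.03 on the log2 scale. The sign of Npy turned in some other fits. For 6 of the 10, Adcyap1, Vip, Crh, Penk, Pdyn and Tac1, every contralateral library lay below every ipsilateral library. Over all genes tested, 6.29% showed such a separation in this direction and 44.6% had a negative fold change. The same 6 genes were lower on the contralateral side in each of the 3 mice, as were 17.3% of all genes tested. The median log2 fold change of the 10 genes, contralateral over ipsilateral, was -0.68, against 0.03 over all genes tested. In edgeR's quasi-likelihood test with adjustment over all genes, 1 of the 10 fell, Adcyap1, and the background was 0.127% of genes called lower. With the mouse fitted as a block, which compares the hemispheres within animals, 2 of the 10 fell, Adcyap1 and Vip, against a background of 0.698%. At an unadjusted p under 0.05, edgeR counted 6 of the 10 without the block, against 6.15% of all genes. With the block it counted 7, Sst in addition, against 13.2% of all genes. DESeq2 called Adcyap1 and Vip, where its background was 0.396% called lower. None of the 10 rose in the edgeR fits with or without the block.

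**Figure D1:**
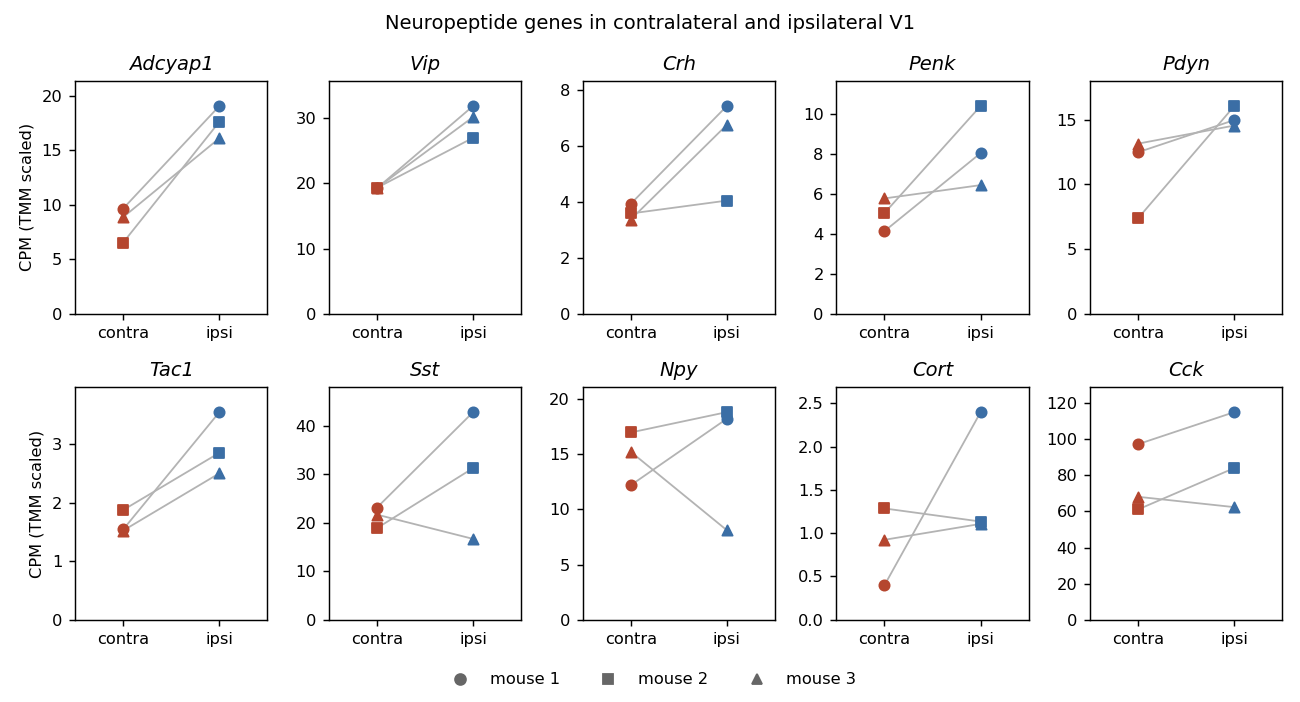
Each panel plots 1 gene in CPM (linear axis from 0) in the 3 contralateral libraries (left, red) and the 3 ipsilateral libraries (right, blue), with a symbol per mouse and a line joining the hemispheres of a mouse. The groups separate for Adcyap1, Vip, Crh, Penk, Pdyn and Tac1, and overlap for Sst, Npy, Cort and Cck.

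Adcyap1 (ENSMUSG00000024256, GRCm38 chr17:93199017-93206537, plus strand) encodes the precursor of PACAP, a peptide that raises cyclic AMP in its target cells. Levels are given in CPM, a gene's reads as a share of its library with TMM factors applied. Adcyap1 had 9.66, 6.53 and 8.86 CPM in contralateral V1 of mice 1 to 3, against 19.1, 17.6 and 16.1 CPM in ipsilateral V1. The highest contralateral library was well under the lowest ipsilateral one, and the means were 8.35 ± 1.62 and 17.6 ± 1.48 CPM (SD, n = 3 each). This is 2.10-fold lower in contralateral V1, a log2 fold change of -1.07 (SE 0.18, edgeR adjusted p = 0.0475), and ranks Adcyap1 25th of the 26 genes that passed. Within mice the log2 differences were -0.98, -1.42 and -0.86. The call without the block was lost without contralateral library 2 (adjusted p = 0.288), contralateral library 3 (0.180), ipsilateral library 2 (0.204) or ipsilateral library 3 (0.0590). The size of the difference moved little, from -1.19 to -0.93 over the fits that left out 1 library. With the mouse as a block the adjusted p was 0.000506, and it was at most 0.00639 when any 1 mouse was left out. Each of those leave-out fits held 2 mice and leaned on variance estimates shared across genes, so it is a weak check.

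Vip (ENSMUSG00000019772, chr10:5639218-5647617, plus strand) encodes vasoactive intestinal peptide, a relative of PACAP that shares receptors with it. Its 3 contralateral libraries were almost identical, at 19.3, 19.3 and 19.3 CPM from 387, 361 and 418 reads, against 31.9, 27.0 and 30.2 CPM in ipsilateral V1. The SD of the contralateral values, 0.04 CPM, was smaller than the 0.98 CPM that counting error alone would give at this depth, so that spread is smaller than the reads can resolve. Vip was 1.54-fold lower in contralateral V1 (log2 fold change -0.62, SE 0.13). It did not pass in edgeR over all libraries (adjusted p = 0.200) but did when hemispheres were compared within mice (adjusted p = 0.00754). Leaving out any 1 mouse from the blocked fit kept the call, with adjusted p from 0.00923 to 0.0236. DESeq2 also called Vip without the block (adjusted p = 0.0113).

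Promoters are shown for a sequence that cyclic AMP and calcium signalling are known to act through, the cAMP response element TGACGTCA, and its shorter core TGACG. The sequences are RefSeq promoters on GRCm38.p6, 250 bases before to 50 after the annotated start, written 5′ to 3′ along the gene, with TGACG on either strand in capitals. Adcyap1 and Vip are given as the genes called with the mouse as a block. Sst is given as the 1 member whose promoter held the full element, and Npy as the gene whose difference lay nearest to 0. They lie at chr17:93198767-93199066 (plus strand, Adcyap1), chr10:5638968-5639267 (plus strand, Vip), chr16:23890795-23891094 (minus strand, Sst) and chr6:49822460-49822759 (plus strand, Npy).
Adcyap1: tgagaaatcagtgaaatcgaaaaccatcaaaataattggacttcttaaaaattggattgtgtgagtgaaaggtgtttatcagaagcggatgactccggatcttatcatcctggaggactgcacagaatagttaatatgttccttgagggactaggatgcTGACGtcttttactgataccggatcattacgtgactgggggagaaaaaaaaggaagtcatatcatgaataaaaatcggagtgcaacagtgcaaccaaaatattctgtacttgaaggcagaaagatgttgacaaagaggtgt
Vip: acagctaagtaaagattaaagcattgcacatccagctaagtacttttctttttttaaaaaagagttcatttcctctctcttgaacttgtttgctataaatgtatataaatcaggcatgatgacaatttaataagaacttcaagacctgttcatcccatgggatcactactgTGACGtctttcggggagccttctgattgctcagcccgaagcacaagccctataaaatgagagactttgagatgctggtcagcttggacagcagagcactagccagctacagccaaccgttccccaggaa
Sst: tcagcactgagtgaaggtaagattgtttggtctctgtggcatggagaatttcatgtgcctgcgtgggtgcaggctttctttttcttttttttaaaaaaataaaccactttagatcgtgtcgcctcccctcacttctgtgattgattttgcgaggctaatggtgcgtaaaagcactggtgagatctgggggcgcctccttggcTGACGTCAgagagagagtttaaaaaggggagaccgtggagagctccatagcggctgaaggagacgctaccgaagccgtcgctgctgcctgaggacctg
Npy: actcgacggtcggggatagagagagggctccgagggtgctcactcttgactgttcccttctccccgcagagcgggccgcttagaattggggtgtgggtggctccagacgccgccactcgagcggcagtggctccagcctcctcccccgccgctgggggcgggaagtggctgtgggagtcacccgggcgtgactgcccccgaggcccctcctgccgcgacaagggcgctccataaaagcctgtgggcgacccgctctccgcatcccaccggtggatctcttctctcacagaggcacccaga
The core began 91 bases before the start of Adcyap1 and 79 before that of Vip. In Sst it lay inside the full element, which began 48 bases before the start and reads the same on both strands.

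The RefSeq table held promoters for 8 of the 10 genes, with 2 each for Pdyn and Adcyap1, 10 promoters in all. TGACG on either strand occurred in 7 of these 10, which belong to 6 genes (Adcyap1, Vip, Sst, Cck, Tac1 and Cort), and in 20.8% of all 32851 promoters in the table. The 2 Adcyap1 promoters overlap and share 1 match. The full element TGACGTCA, of which TGACG is part, occurred in Sst alone among the 10 and in 1.79% of all promoters. The AP-1 site TGANTCA occurred in 0 of the 10 and in 7.81% of all promoters. The TATA box TATAAA, searched on both strands, occurred in Vip and in 1 of the Adcyap1 promoters, and in 13.6% of all promoters. The core was thus found in Adcyap1, which passed in edgeR without and with the block, and in Vip, which passed there only with it. It was also found in genes that passed in neither fit, such as Sst and Cck.

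Crh, Penk, Pdyn and Tac1 separated the hemispheres but did not pass in either fit over all libraries. Crh (ENSMUSG00000049796, chr3:19693401-19695396, minus strand) encodes corticotropin-releasing hormone, the peptide that starts the stress response and that in cortex is made by interneurons. It stood at 3.93, 3.59 and 3.37 CPM in contralateral V1 and at 7.44, 4.05 and 6.77 CPM in ipsilateral V1. The separation was narrow, since the ipsilateral library of mouse 2 lay just above the contralateral ones. The log2 fold change of Crh was -0.74 (SE 0.25, edgeR adjusted p = 0.696 without and 0.150 with the block). Without mouse 2 it passed with the block (-0.96, adjusted p = 0.0484), and without mouse 1 or mouse 3 it did not.

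Penk (ENSMUSG00000045573, chr4:4133531-4138819, minus strand) and Pdyn (ENSMUSG00000027400, chr2:129686565-129699844, minus strand) encode the precursors of the opioid peptides enkephalin and dynorphin. Penk stood at 4.13, 5.03 and 5.77 CPM in contralateral V1, against 8.04, 10.4 and 6.44 CPM in ipsilateral V1. Mouse 3 showed little difference (-0.16 on the log2 scale), while mice 1 and 2 showed -0.95 and -1.03. The log2 fold change was -0.74 (SE 0.23, edgeR adjusted p = 0.591 without and 0.108 with the block). Pdyn stood at 12.5, 7.39 and 13.2 CPM in contralateral V1 and at 14.98, 16.1 and 14.6 CPM in ipsilateral V1. Here mouse 2 carried most of the difference, with -1.11 on the log2 scale against -0.26 and -0.14 in mice 1 and 3. The log2 fold change of Pdyn was -0.46 (SE 0.21, edgeR adjusted p = 0.797 without and 0.201 with the block). Without mouse 3 both passed with the block, Penk at -1.01 (adjusted p = 0.00742) and Pdyn at -0.68 (0.0392). Without mouse 2 neither did, with Penk at -0.54 (0.370) and Pdyn at -0.20 (0.623). Leaving out contralateral library 2 brought Pdyn to -0.25 without the block. An antisense gene that overlaps Penk, A830012C17Rik, held at most 7 reads in a library.

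Tac1 (ENSMUSG00000061762, chr6:7554879-7565834, plus strand) encodes the precursor of substance P and neurokinin A. It stood at 1.54, 1.87 and 1.52 CPM in contralateral V1, against 3.55, 2.85 and 2.50 CPM in ipsilateral V1. These values rest on 31 to 35 reads per contralateral and 61 to 88 per ipsilateral library. The log2 fold change was -0.84 (SE 0.27, edgeR adjusted p = 0.619 without and 0.183 with the block). All 3 mice were lower on the contralateral side, with log2 differences of -1.16, -0.58 and -0.68. Its size was the second largest of the 10 after Adcyap1, with an interval from -1.42 to -0.27 (95%, unadjusted).

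**Figure D2:**
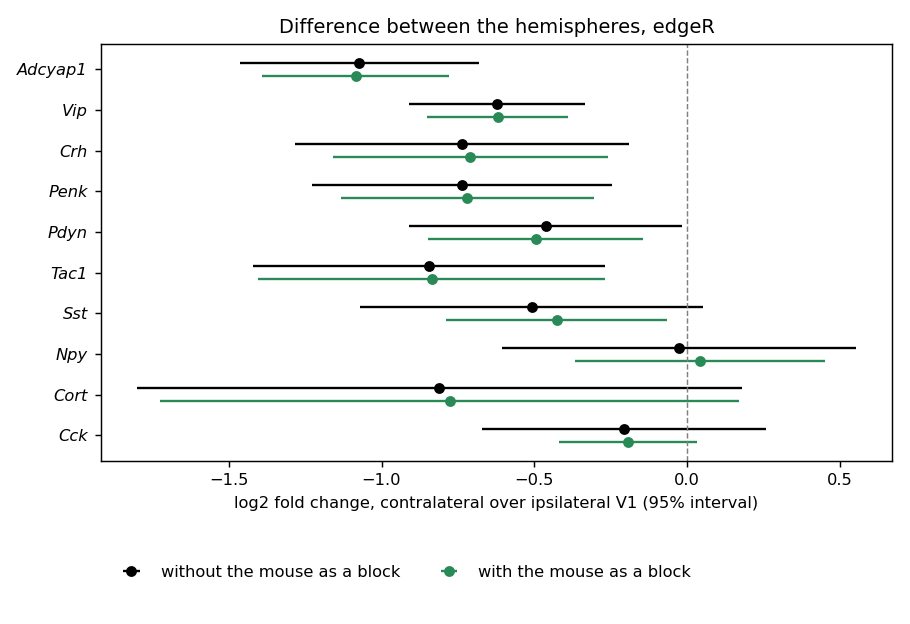
Points are log2 fold changes, contralateral over ipsilateral V1, from edgeR without (black) and with (green) the mouse as a block, and bars are 95% intervals not adjusted for the number of genes. The 10 estimates run from -1.07 for Adcyap1 to -0.03 for Npy without the block, and those of Sst, Npy, Cort and Cck have black bars that cross 0.

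Sst, Npy, Cort and Cck overlapped between the hemispheres. Sst (ENSMUSG00000004366, chr16:23889573-23890958, minus strand) encodes somatostatin, and its 6 libraries ranged widely: 23.1, 18.9 and 21.7 CPM in contralateral V1 and 42.8, 31.3 and 16.7 CPM in ipsilateral V1. The ipsilateral library of mouse 3 was the lowest of all 6, so that this mouse differed by 0.38 on the log2 scale while mice 1 and 2 differed by -0.89 and -0.72. Over all libraries the log2 fold change was -0.51 (SE 0.26, edgeR adjusted p = 0.820 without and 0.286 with the block). Its size depended on the mice included. In the blocked fit it was -0.81 without mouse 3, where Sst passed on the 2 mice left (adjusted p = 3.87e-05). It was -0.22 without mouse 1 (0.665) and -0.28 without mouse 2 (0.668). Without the block it was -0.21 when ipsilateral library 1 was left out and -0.81 when ipsilateral library 3 was (adjusted p = 0.882 and 0.199).

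Npy (ENSMUSG00000029819, chr6:49822710-49829507, plus strand), which encodes neuropeptide Y, showed the same low library. It stood at 12.2, 17.0 and 15.2 CPM in contralateral V1 and at 18.2, 18.8 and 8.12 CPM in ipsilateral V1. Mouse 3 differed by 0.90 on the log2 scale, and mice 1 and 2 by -0.58 and -0.15. The log2 fold change was -0.03 (SE 0.27, edgeR adjusted p = 0.993), with a 95% interval from -0.61 to 0.55, and its sign turned with the block (0.04) and without TMM scaling (0.03). A difference within these bounds could not be told from 0. Without mouse 3 the blocked fit gave -0.36 (adjusted p = 0.382). Over the 36 tested interneuron markers other than the 10, that library was the lowest of the 3 ipsilateral ones for 19 (52.8%) and the lowest of all 6 for 6 (16.7%), against 37.1% and 20.4% of all genes tested. Among these markers, Lhx6, a transcription factor gene of interneurons from the medial ganglionic eminence, and Elfn1, a synaptic adhesion gene of Sst cells, stood at 9.96 and 10.7 CPM in ipsilateral V1 of mouse 3, against 14.8 and 17.6 CPM in mouse 1 and 13.6 and 17.1 CPM in mouse 2. These 2 genes were picked after their values were seen, and Gad2 did not show the pattern (129 CPM in mouse 3, against 137 and 135 CPM in mice 1 and 2). Whether the cell makeup of that dissection differed was not tested.

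Cort (ENSMUSG00000028971, chr4:149125034-149126763, minus strand) encodes cortistatin, a relative of somatostatin that binds the same receptors. It was the gene with the fewest reads, 8, 24 and 20 in contralateral V1 and 48, 35 and 27 in ipsilateral V1. Mouse 1 alone carried a large difference (-2.35 on the log2 scale, against 0.17 and -0.24), and the log2 fold change of -0.81 had an SE of 0.46 (edgeR adjusted p = 0.826 without and 0.483 with the block). Without mouse 1 the blocked fit gave -0.07, and leaving out contralateral or ipsilateral library 1 gave -0.47 and -0.41 without the block. Cck (ENSMUSG00000032532, chr9:121489824-121495694, minus strand), the cholecystokinin gene, stood at 97.3, 61.2 and 68.1 CPM in contralateral V1 and at 115, 84.1 and 62.4 CPM in ipsilateral V1. The spread between mice was larger than the difference between hemispheres (log2 fold change -0.21, SE 0.21, edgeR adjusted p = 0.891 without and 0.460 with the block). Its 95% interval, from -0.67 to 0.26, leaves out a fall as large as that estimated for Adcyap1.

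**Figure D3:**
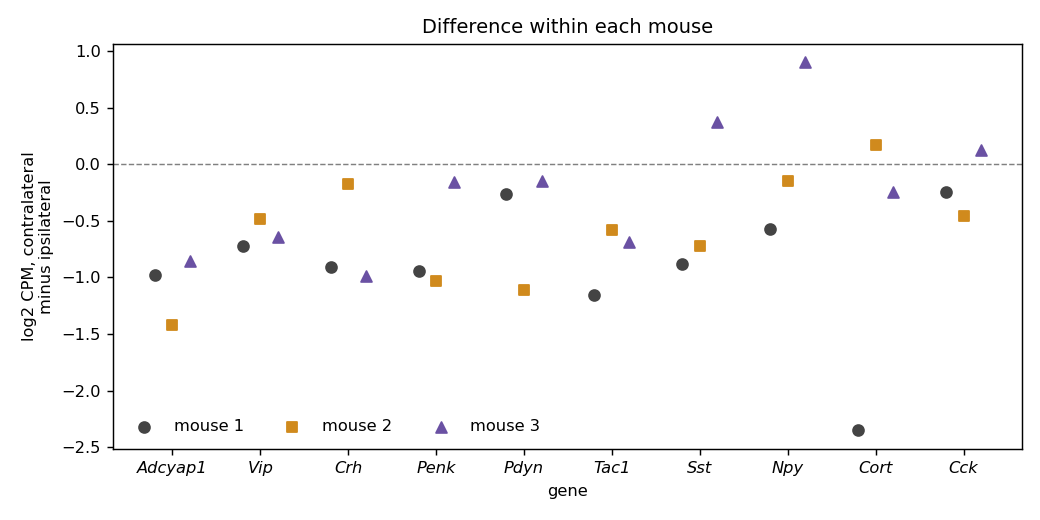
Points are the difference in log2 CPM, contralateral minus ipsilateral, within mouse 1, 2 and 3 for each of the 10 genes. All 10 genes lie below 0 in mouse 1, 9 in mouse 2 and 7 in mouse 3, where Sst, Npy and Cck lie above 0.

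The mice thus differed in how many of the genes were lower. All 10 were lower in contralateral V1 of mouse 1, 9 in mouse 2 (all but Cort) and 7 in mouse 3 (all but Sst, Npy and Cck). The median log2 difference of the 10 was -0.90, -0.53 and -0.20 in mice 1 to 3, against medians over all genes between -0.002 and 0.03. With the block and without mouse 3, 5 of the 10 fell (Vip, Sst, Penk, Pdyn and Adcyap1), against 0.946% of all genes tested in that fit. Without mouse 1 the same fit called 2 (Vip and Adcyap1), against 0.956%, and without mouse 2 it called 3 (Vip, Crh and Adcyap1), against 0.602%. Each of these fits held 2 mice. Over all genes they called 250, 174 and 269, lower or higher, without mice 1, 2 and 3, against 183 with all mice. Their calls thus do not gauge the spread over mice.

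Libraries also differed in mt-Rnr1, the mitochondrial 12S ribosomal RNA, in a way that followed the hemispheres only in part. It was low in contralateral 1, ipsilateral 1 and ipsilateral 3 (14.5 to 35.9 CPM) and high in contralateral 2, contralateral 3 and ipsilateral 2 (2243 to 5801 CPM). Each set thus compares a lone library with a pair, and the lone one was taken to have the same spread as the rest. Only mouse 3 had a library in each set, its contralateral one high (5801 CPM) and its ipsilateral one low (14.5 CPM). The differences within mouse 3, where Sst, Npy and Cck were higher on the contralateral side, cannot be told apart from this split. The median of the 10 genes was -0.76 within the low set and -0.56 within the high set. With an arm of 1 library, the values within a set are given with no call. Adcyap1 was at -0.87 within the low set and -1.19 within the high set. Vip was at -0.70 and -0.49, Tac1 at -0.97 and -0.75, and Penk at -0.82 and -0.94 in the low and high sets. The 2 sets differed more for Crh (-0.86 and -0.22) and Cort (-2.12 and -0.05), and Cck changed sign (0.12 and -0.38).

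Set side by side per length, the 10 genes covered a wide range of levels. RPKM, the CPM divided by the table's gene length in kilobases, averaged 62.3 over the 6 libraries for Cck, 43.0 for Sst and 26.4 for Npy. A gap followed, with Vip at 7.20, Adcyap1 at 6.22, Pdyn at 4.54, Penk at 4.06, Crh at 3.68, Cort at 1.78 and Tac1 at 0.68 RPKM. The lowest Npy library (14.3 RPKM) lay above the highest Vip library (9.38 RPKM), and every other pair of neighbours in this order overlapped in range over the libraries. Within a library Cck was above Sst, Sst above Npy, Crh above Cort and Cort above Tac1 in all 6, whereas Pdyn was above Penk in 4 and Penk above Crh in 3. Cck was above 98.0% of the genes tested in mean RPKM and Tac1 above 16.3%. The order was the same in TPM.

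**Figure D4:**
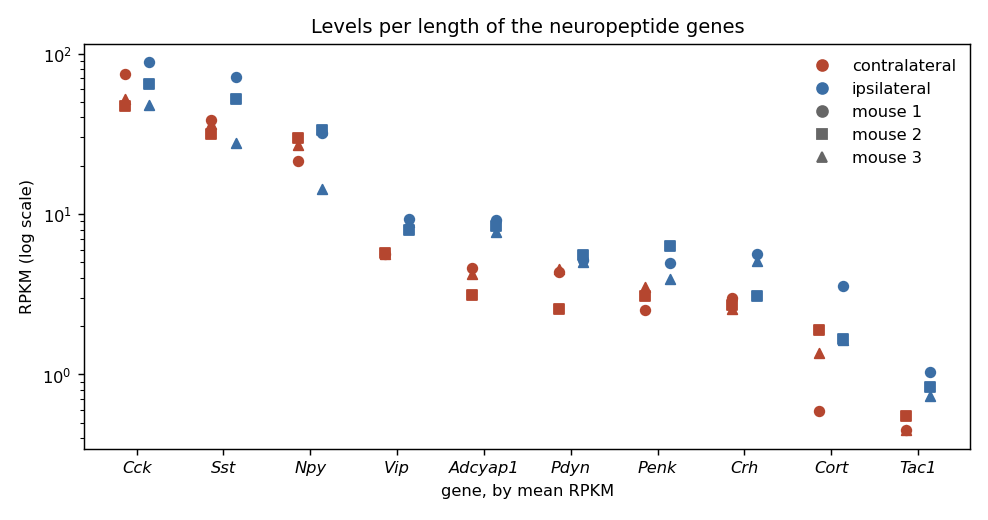
RPKM (log scale) of each gene in the 3 contralateral (red, left of each pair) and 3 ipsilateral libraries (blue, right), ordered by the mean over all 6, with a symbol per mouse. Cck, Sst and Npy lie between 14.3 and 88.2 RPKM, and the other 7 genes between 0.45 and 9.38 RPKM.

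None of the receptor genes of these peptides passed. Of 23 receptor genes, with the gene for the CRH binding protein Crhbp counted among them, 18 were tested, 0 passed in either fit, and the median log2 fold change was -0.08. At an unadjusted p under 0.05 edgeR counted 0 of the 18 without the block (6.15% of all genes) and 2 with it, Npy1r and Cckbr (13.2% of all genes), and DESeq2 called 0. Adcyap1r1, which encodes the PAC1 receptor for PACAP, stood at 194 ± 26.5 CPM in contralateral and 177 ± 28.1 CPM in ipsilateral V1 (log2 fold change 0.13, SE 0.15). Vipr1, a receptor for both VIP and PACAP, stood at 33.2 ± 3.05 and 29.9 ± 5.30 CPM (0.15, SE 0.15). Both were nominally higher on the contralateral side in all 3 mice, as were 19.2% of all genes, and neither passed (edgeR adjusted p = 0.898 and 0.883). Without contralateral library 1 Adcyap1r1 was at 0.014, and without ipsilateral library 3 Vipr1 was at 0.059. The neuropeptide Y receptor gene Npy1r (-0.29, adjusted p = 0.820) and the somatostatin receptor gene Sstr2 (-0.27, 0.844) had every contralateral library below every ipsilateral one, and the tachykinin receptor gene Tacr3 (0.36, 0.832) the reverse, as 6.29% and 6.70% of all genes did. Without contralateral library 2, Npy1r was at -0.15 and Sstr2 at -0.11.

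Among the other receptors, the log2 fold change was -0.08 for Sstr1, -0.01 for Sstr3 and -0.06 for Sstr4, and -0.28 for Npy2r and 0.03 for Npy5r. The cholecystokinin receptor gene Cckbr was at -0.28, the substance P receptor gene Tacr1 at -0.29, the CRH receptor genes Crhr1 and Crhr2 at -0.04 and -0.20, and Crhbp at -0.37. The opioid receptor genes stood at 0.07 for Oprd1, -0.09 for Oprm1 and -0.73 for Oprk1, the last with an SE of 0.62. Adjusted p of these 13 genes lay between 0.830 and 0.994 in edgeR. Of the 5 receptors with too few reads to test, Npy4r had 0 reads in every library.

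Peptide processing genes split in the same comparison. Of 14 genes for precursor cleavage, amidation and dense-core vesicles, all tested, 2 fell and 0 rose, against a background of 0.127% called lower, and the list median was -0.08. Pcsk1, the prohormone convertase that cuts many of these precursors, stood at 60.4 ± 8.17 CPM in contralateral and 134 ± 21.8 CPM in ipsilateral V1 (log2 fold change -1.14, SE 0.15, edgeR adjusted p = 0.00903). Scg2, a secretogranin of dense-core vesicles, stood at 89.1 ± 12.9 and 152 ± 9.45 CPM (-0.77, SE 0.13, adjusted p = 0.0481). Without the block, Pcsk1 lost its call without contralateral library 2 (adjusted p = 0.201), where its log2 fold change was -1.08. Scg2 lost its call without contralateral library 1 (0.135) or 2 (0.343) or ipsilateral library 2 (0.319) or 3 (0.106), with log2 fold changes from -0.81 to -0.71 in those 4 fits. With the block both fell, at adjusted p of 7.70e-06 for Pcsk1 and 0.000547 for Scg2. The amidating enzyme gene Pam (-0.22), the vesicle priming gene Cadps2 (-0.20), Scg5 (-0.14) and Chgb (-0.20) came next by p and did not pass.

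Other neuropeptide precursors were mostly rare in V1. Of 43 further precursor genes found in the table, 15 had enough reads to test, 6 had 0 reads in every library, and the median of the 15 was -0.23. None passed in edgeR without the block, where 2 of the 15 had an unadjusted p under 0.05 (6.15% of all genes). With the block 1 fell (background 0.698%), and DESeq2 also called it (background 0.396%). This was Vgf, the precursor of several peptides in dense-core vesicles that is induced by neurotrophins. Vgf stood at 84.7, 65.0 and 68.9 CPM in contralateral V1, against 196, 116 and 94.1 CPM in ipsilateral V1 (log2 fold change -0.90, SE 0.22, adjusted p = 0.351 without and 0.000928 with the block). Without ipsilateral library 1, its highest, Vgf was at -0.57. Agrp (0.79), Uts2 (0.88), Pthlh (-0.38) and Cartpt (-0.48) followed by p without passing, each at about 2 CPM or less. Of these, Agrp was at 0.52 without contralateral library 3, Pthlh at -0.24 without contralateral library 2 and Cartpt at -0.22 without ipsilateral library 1.

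Interneuron markers other than the 10 were set beside them. Of the 36 that were tested, 0 passed in edgeR without the block, where 13 had an unadjusted p under 0.05 (6.15% of all genes), and 1 passed in DESeq2 (Gad1). The list median was -0.21, and 29 of the 36 had a negative fold change (44.6% of all genes). In all 3 mice 18 were lower (17.3% of all genes), and for 12 every contralateral library lay below every ipsilateral one (6.29% of all genes). With the block, 5 fell (background 0.698%) and 1 rose (background 0.195%). Gad1 and Gad2, whose products make GABA, stood at 133 ± 14.9 and 96.1 ± 13.4 CPM in contralateral V1, against 196 ± 19.8 and 134 ± 4.10 CPM in ipsilateral V1. Their log2 fold changes were -0.56 and -0.48 (edgeR adjusted p = 0.278 and 0.452 without, 0.00558 and 0.0301 with the block), close to the -0.62 of Vip. Lamp5, a marker of neurogliaform cells (-0.46, 0.0329 with the block), the noncoding Dlx6os1 (-0.54, 0.0451) and the growth factor gene Igf1 (-0.60, 0.0494) were the others that fell, and Nos1, the neuronal nitric oxide synthase gene (0.45, 0.0456), rose. Of these blocked calls, Gad1 alone held when any 1 mouse was left out. Without mouse 1, Gad2 (adjusted p = 0.0964), Dlx6os1 (0.138), Igf1 (0.169) and Nos1 (0.364) were lost, without mouse 2 Gad2 (0.0689), Lamp5 (0.0678) and Igf1 (0.133), and without mouse 3 Dlx6os1 (0.111) and Nos1 (0.0741). Without mouse 1 the log2 fold change of Nos1 was 0.30, and DESeq2 with the block did not call it (0.0694). Without reaching the threshold, Sp8 (-1.23), Erbb4 (-0.35), Myl1 (1.33) and Nxph1 (-0.33) came next by p, with Myl1 at 0.85 without contralateral library 2.

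Log2 fold changes of the 36 tested markers ran from -1.23 (Sp8) to 1.33 (Myl1), and 29 were negative. Some markers had estimates nearer to 0. The markers in this paragraph were named after their values were seen. They stand neither for the list nor for the markers of Vip or Sst cells as a group. Calb2, which many Vip cells express, stood at 5.58 ± 0.383 CPM in contralateral and 5.66 ± 1.599 CPM in ipsilateral V1 (log2 fold change -0.01, SE 0.23). Htr3a, the serotonin receptor gene of the class that contains Vip cells, was at -0.18. Its SE of 0.36 does not set it apart from the -0.62 of Vip. Sox6 (-0.04) and Satb1 (0.03), transcription factor genes of Sst and parvalbumin cells, were also near 0, while the GABA transporter gene Slc32a1 (-0.49, adjusted p = 0.806) and Pvalb (-0.38, 0.786) were not. The summed level of the 40 markers was 1816 to 2057 CPM in contralateral and 2232 to 2458 CPM in ipsilateral libraries. The part that this lower sum has in the neuropeptide values was not tested.

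**Figure D5:**
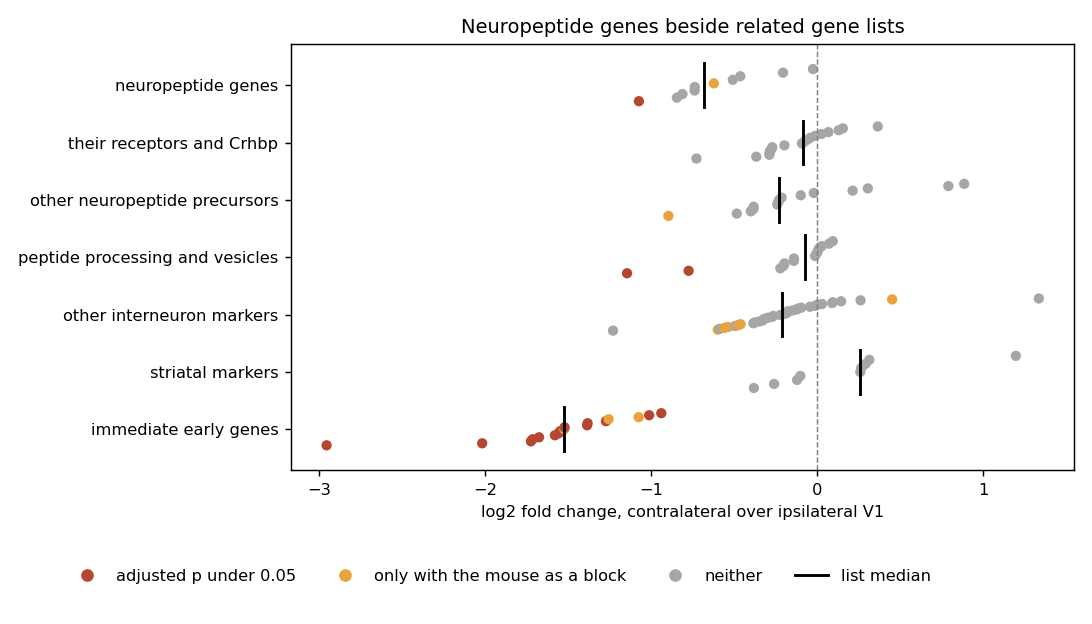
Each point is the log2 fold change, contralateral over ipsilateral V1, of 1 tested gene, grouped by list, with the list median as a black line, genes at an adjusted p under 0.05 in red and those called only with the mouse as a block in orange. The median is -0.68 for the 10 neuropeptide genes, -0.08 for their receptors, -0.21 for the other interneuron markers and -1.52 for the 17 immediate early genes.

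Penk, Pdyn and Tac1 are far more abundant in the striatum, so its markers were set beside them. Of 13 striatal markers 9 were tested and 0 passed in either edgeR fit or in DESeq2. At an unadjusted p under 0.05, 3 of the 9 were counted without the block (6.15% of all genes) and 5 with it (13.2% of all genes), with fold changes of both signs, and the median was 0.26. Their summed level was 240 to 319 CPM in contralateral and 252 to 280 CPM in ipsilateral libraries, and 1 of the 13, Six3, was at 0 in all 6. Whether any striatal tissue was included was not tested. Drd1 (-0.38), Pde10a (-0.26), Rasd2 (0.31) and Gpr6 (1.20) had the smallest p. Without contralateral library 1, Gpr6 was at 0.37 and Rasd2 at 0.14, and without mouse 1 the blocked fit gave 0.21 for Gpr6. Immediate early genes, which neurons switch on within minutes of activity, had a list median of -1.52, and 14 of 17 fell without the block (background 0.127%) and 17 with it (background 0.698%). Of the 10 peptide genes, Adcyap1 (-1.07) alone had a fold change within the range of that list, -2.95 to -0.94.

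The genes whose levels over the 6 libraries most resembled those of Adcyap1, the member with the smallest p, were Arl4c (Pearson's r = 0.993), Prkar2a (0.991), Ppme1 (0.991), Il17ra (0.991) and Mapre1 (0.991), out of 13562 genes with a mean of at least 1 CPM. The 6 libraries share the 3 mice and the hemispheres, so the values of r describe these libraries and carry no test. All 5 had smaller differences than Adcyap1, with log2 fold changes from -0.54 (Ppme1) to -0.30 (Mapre1), and none passed without the block in edgeR. With the block, Ppme1 (adjusted p = 0.00937) and Arl4c (0.0293) fell, against a background of 0.698%. No circRNA of the 1488 in the deposited table had 1 of the 10 genes as its host (0 of 1488).

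Read depth set the precision of these values. Libraries held 20172439, 17849253 and 21818822 gene reads in contralateral V1 and 20749614, 32213500 and 23564051 in ipsilateral V1. At these depths the 10 genes had from 8 reads (Cort, contralateral 1) to 2595 reads (Cck, ipsilateral 2) per library. The markers of excitatory cortical neurons, the cells that define cortical tissue, summed to 6141 to 6803 CPM in contralateral and 5151 to 6926 CPM in ipsilateral libraries.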

How the data were processed

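The deposited gene file held raw counts, with gene lengths, in featureCounts format (per the file headers). The authors also deposited back-splice counts per circRNA, read here only for host genes, and normalized circRNA values, not used. HISAT2, featureCounts, limma, DESeq2 and GRCm38 appear in the submitters' processing notes. Their roles and versions, the annotation and the strand setting were not stated in the sources used here, so counts of overlapping antisense genes are uncertain. The labels' protocols give TRIzol extraction and a SMARTer Stranded total RNA kit. Columns of other samples numbered 0.

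Symbols came from GENCODE M21 (GRCm38), which held 52489 of 52636 identifiers. Contralateral was compared with ipsilateral V1 in R 4.3.3 with edgeR 4.0.16 (TMM, filterByExpr at minimum count 10 and minimum total 15, quasi-likelihood test, Benjamini-Hochberg adjustment over 20473 genes, threshold 0.05) and, as an alternative, DESeq2 1.42.0. The standard error is the size of the log2 fold change divided by the root of F. CPM divides by the reads of tested genes times the TMM factor, and differences within mice use log2 CPM with a prior count of 2. Code was tested on simulated data. Python 3.11.15 with matplotlib 3.10.9 drew the figures. Replicate spread is between mice, and counting error covers no other source.

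The labels give same-numbered libraries to the same mouse, which pairs them. Library deviations from their hemisphere's mean correlated at 0.431, 0.0775 and 0.172 within mice 1 to 3, and between -0.295 and 0.177 across mice. The fit without the mouse was fixed as the main one, and the mouse as a block as an alternative. Correlations of log2 CPM between libraries (0.976 to 0.988) showed no duplicate.

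The 10 genes and all lists were chosen with earlier results of these data known. Named genes were the 10, their receptors, list genes that passed in either fit (counted only for immediate early genes), up to 4 more by p in 4 lists, and the 5 genes most like the member with the smallest p. Promoters came from RefSeq.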

Additional observations from a re-analysis of the deposited data

How the results depend on the processing

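Over 17 alternatives, Adcyap1, Vip, Sst, Crh, Penk, Pdyn, Tac1 and Cort kept a negative sign throughout, and the median of the 10 stayed between -0.76 and -0.56. The count of neuropeptide genes called was 1 with RLE scaling, library size alone or no filter, and 2 in DESeq2. It was 2 with the mouse as a replicate block in edgeR and in DESeq2, and 0 to 5 over the fits that left out a library or a mouse. No count is given within the mt-Rnr1 sets, where an arm held 1 library. Over all genes the count was 26, then 109 with no filter, 89 in DESeq2, 183 with the block, 215 with the block in DESeq2, and 0 to 269 over the leave-out fits. Without contralateral library 2, edgeR called 0 genes, with 833 at an unadjusted p under 0.05.

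Npy turned positive with library size alone (0.030), with the replicate block (0.043) and with the block in DESeq2 (0.033), and ran from -0.36 to 0.32 over the leave-out fits. Cck ran from -0.43 to 0.0052 there and was at 0.12 within the low mt-Rnr1 libraries. Receptors near 0 also turned. Sstr3 was at 0.028 with library size alone and Npy5r at -0.0085 with the block in DESeq2. Within the low mt-Rnr1 libraries the values were 0.48 (Sstr1), 0.099 (Sstr3), 0.057 (Sstr4), 0.36 (Npy2r), -0.053 (Npy5r), 0.10 (Tacr1), 0.24 (Crhr1), 0.77 (Crhr2) and 0.048 (Scg5), and within the high ones 0.0024 (Crhbp) and -0.0032 (Oprd1). Leave-out fits ran from -0.51 to 0.14 (Sstr1), -0.14 to 0.13 (Sstr3), -0.17 to 0.090 (Sstr4), -0.60 to 0.066 (Npy2r), -0.16 to 0.13 (Npy5r), -0.23 to 0.079 (Crhr1), -0.76 to 0.54 (Crhr2), -0.12 to 0.20 (Oprd1), -0.25 to 0.10 (Oprm1), -1.36 to 0.26 (Oprk1), -0.30 to 0.031 (Scg5) and -0.53 to 0.045 (Chgb). The cause was not tested. Among the genes named, the block changed the calls of Vip, Vgf, Gad1, Gad2, Lamp5, Dlx6os1, Igf1, Nos1, Ccn2, Arl4c and Ppme1 and of no other. Cort, with 8 to 48 reads, had a 95% interval from -1.80 to 0.18, which holds both 0 and the fall of Adcyap1.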

Other observations

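Lists of other cells and regions were measured in the same libraries. Of 13 tested markers of excitatory cortical neurons none passed without the block, and 1 fell with it (background 0.698%). This was Ccn2, a matricellular protein gene of the deepest cortical neurons (7.98 ± 1.72 CPM in contralateral and 14.2 ± 4.77 CPM in ipsilateral V1). Its log2 fold change was -0.83 (edgeR adjusted p = 0.550, or 0.00849 in the blocked fit). Without mouse 1 the blocked call was lost (0.0652). The list median was -0.11, and 2 of the 13 had an unadjusted p under 0.05 without and 4 with the block. Of 20 tested glial, vascular and blood markers, 12 hippocampal markers and 10 thalamic and hypothalamic markers, 0 passed in either edgeR fit or in DESeq2, with medians of 0.03, 0.13 and 0.04. At an unadjusted p under 0.05 edgeR counted 0, 0 and 1 of them without the block and 1, 2 and 2 with it. Over all genes these shares were 6.15% and 13.2%.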
